A study of Mus musculus with 18 samples.

Results

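TGF-beta and activin signalling was followed through 10 genes named in the request, each found in the count file by its exact gene name. They were 10 of 56748 genes listed in that file, and all 10 were present once. The genes are the ligand genes Tgfb1 and Inhba, the activator Thbs1, the receptors Tgfbr1, Tgfbr2 and Acvrl1, the Smads Smad3, Smad6 and Smad7, and the corepressor Skil. The study used RAW 264.7 cells, a mouse macrophage cell line, and sequenced poly(A) RNA in bulk from 18 libraries in 6 groups of 3. The deposited data label all 18 libraries WT. TBHQ, tert-butylhydroquinone, is a phenolic food antioxidant, LPS is a bacterial cell wall component, and PIC, polyinosinic:polycytidylic acid, is a synthetic double-stranded RNA. Control cells received none of these agents. The paper dissolved TBHQ in DMSO and names no solvent for the sequenced groups without TBHQ. Effects of TBHQ and of its solvent therefore cannot be told apart. The TBHQ group received TBHQ alone for 4 h, the LPS group LPS alone for 12 h, and the PIC group PIC alone for 12 h. The LPS + TBHQ and PIC + TBHQ groups received TBHQ for 4 h and then the stimulus for 12 h. A group given TBHQ alone and held for the later 12 h was not among the libraries. Agent and harvest time therefore cannot be told apart where TBHQ alone is compared with the control. Where TBHQ plus a stimulus is compared with the stimulus alone, a lasting effect of TBHQ itself cannot be told apart from a changed response.

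Ligands of the TGF-beta family bind a type II receptor, which phosphorylates a type I receptor, which phosphorylates a receptor-activated Smad that enters the nucleus with Smad4. TGF-beta is secreted in a latent complex and must be released before it can bind, whereas activin is secreted as an active dimer and is restrained by binding proteins. In macrophages TGF-beta is known mainly for dampening inflammatory gene expression, and inhibitory Smads and the corepressors of the Ski family restrain the signal inside the cell.

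Total counts per library ran from 14423390 to 18851626. The deposited FPKM, fragments per gene length as scaled for each library before deposition, give a level per length. They were therefore used for levels and for the order of genes. Of 9 macrophage markers 9 exceeded 3 counts in a library, and their summed level was 5585 to 6584 FPKM, most of it Lyz2 at a mean of 4021 FPKM. Mertk, also a macrophage marker, reached at most 5 counts. The osteoclast genes Acp5 and Ctsk were also abundant, Ctsk at a mean of 182 FPKM, whereas Calcr had at most 2 counts. Summed levels reached at most 0.122 FPKM for 5 fibroblast markers, 0.0279 FPKM for 4 epithelial, 0.235 FPKM for 3 endothelial, 0.0404 FPKM for 3 T cell, 0.338 FPKM for 2 B cell and 1.38 FPKM for 3 dendritic markers. Their most abundant genes were Dcn, Epcam, Kdr, Cd3d, Cd79a and Itgax, and Col1a2, Krt8, Krt18, Cdh1, Cd3e and Cd8a had no count in any library. Tnf, a gene of the stimulus response, rose with LPS (log2FC 2.04, SE 0.076, FDR 9.07e-30) and PIC (log2FC 3.14, SE 0.082, FDR 1.50e-35), and Gclm, a gene of the antioxidant response, rose with TBHQ alone (log2FC 1.82, SE 0.032, FDR 7.82e-29). Il1b, the other stimulus marker, rose from a mean of 0.0432 FPKM in the control to 44.9 FPKM with LPS (FDR 1.82e-26) and 128 FPKM with PIC (FDR 8.67e-31). Hmox1, the other TBHQ marker, rose with TBHQ alone by a log2FC of 2.09 (SE 0.047, FDR 3.49e-31). Hmox1 also rose with LPS (log2FC 2.33, FDR 1.36e-33) and PIC (log2FC 2.57, FDR 3.16e-35), and fell with TBHQ before LPS (log2FC -0.30, FDR 1.97e-08) and before PIC (log2FC -0.16, FDR 0.000291). Gclm instead rose in both of these, by a log2FC of 0.98 before LPS (FDR 1.62e-21) and 1.10 before PIC (FDR 1.76e-22). The stimulus markers fell in both, Tnf by -0.24 before LPS (FDR 1.51e-05) and -0.83 before PIC (FDR 3.70e-18), and Il1b by -3.00 (FDR 8.05e-21) and -3.19 (FDR 4.37e-23). Gclm also rose with LPS by 0.93 (FDR 6.22e-21) and with PIC by 0.72 (FDR 7.84e-18), and Tnf with TBHQ alone by 0.68 (FDR 5.64e-15). RNA from bulk cells cannot tell fewer expressing cells from less RNA per cell.

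In control cells Tgfb1 was the most abundant of the 10 genes at a mean of 36.2 FPKM, followed by Tgfbr2 at 21.1, Tgfbr1 at 7.28, Skil at 5.21, Acvrl1 at 3.62 and Smad6 at 1.20 FPKM. Smad3 at 0.816, Smad7 at 0.337 and Thbs1 at 0.00974 FPKM came last, and Inhba had no counts. Tgfb1 and Tgfbr2 held the first and second place in each of the 6 groups. Acvrl1 stood above Tgfbr1 in the LPS, PIC, LPS + TBHQ and PIC + TBHQ means, and below it in the control and TBHQ means. Smad3 had the lowest mean of the 10 in the PIC group, at 0.205 FPKM, below Inhba at 0.394 and Thbs1 at 1.01 FPKM.

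**Figure D1:**
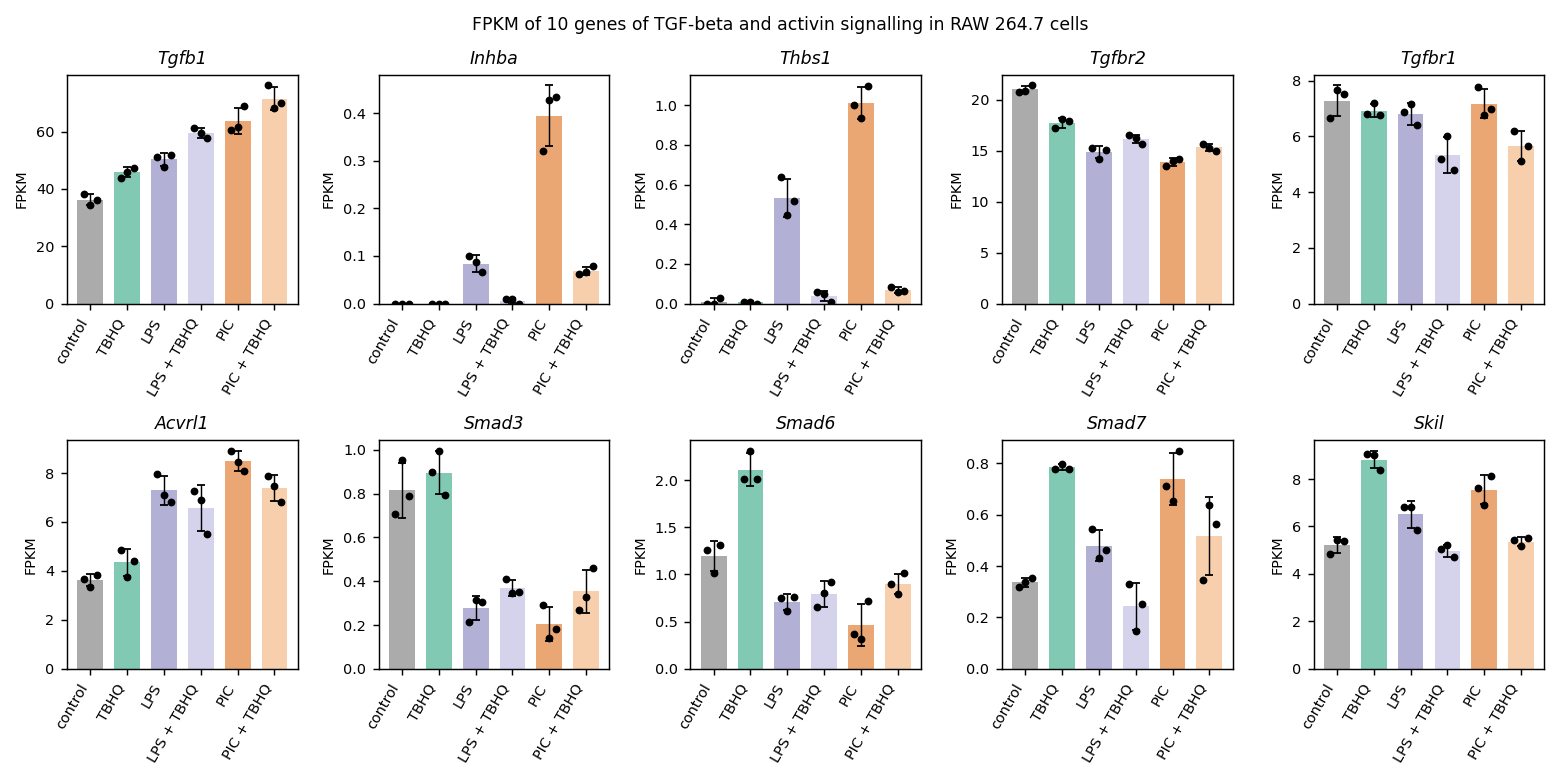
FPKM of each of the 10 genes in the 18 libraries; points are libraries, bars group means and error bars the SD of 3 libraries, with a separate linear axis from 0 for each gene. Inhba and Thbs1 are highest with PIC, and Tgfb1 is lowest in the control and highest with PIC + TBHQ.

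Differences between groups were tested in edgeR with the quasi-likelihood test on the deposited counts of 13691 genes, and FDR is the Benjamini-Hochberg adjusted p over those genes. A gene is called higher or lower at an FDR below 0.05. The SE given beside a log2FC comes from the spread of log2 CPM (counts divided by the scaled library total) between the libraries of the groups compared, whereas the test also takes in the counting error of low counts. The p-values measure only the spread between these samples. Comparisons with the control share the control libraries, and those with LPS or PIC share the LPS or PIC libraries.

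Tgfb1 encodes TGF-beta 1, the ligand for which the pathway is named. Control libraries held Tgfb1 at 38.3, 34.3 and 36.2 FPKM, and TBHQ libraries at 43.9, 46.0 and 47.4 FPKM. With LPS, Tgfb1 measured 51.2, 47.7 and 52.0 FPKM, and with LPS + TBHQ 61.2, 59.4 and 57.6 FPKM. With PIC, Tgfb1 measured 60.4, 61.7 and 68.8 FPKM, and with PIC + TBHQ 76.1, 68.4 and 69.9 FPKM. The group means ascended from control through TBHQ, LPS, LPS + TBHQ and PIC to PIC + TBHQ, and only the last 3 overlapped with a neighbour. Tgfb1 rose with TBHQ alone (log2FC 0.33, SE 0.056, FDR 1.12e-06), with LPS (log2FC 0.47, SE 0.059, FDR 2.92e-10) and with PIC (log2FC 0.80, SE 0.074, FDR 1.01e-16). It was higher with PIC than with LPS (log2FC 0.33, SE 0.068, FDR 9.95e-07). TBHQ before the stimulus raised it further, after LPS by a log2FC of 0.24 (SE 0.044, FDR 0.000194) and after PIC by 0.18 (SE 0.074, FDR 0.00313). Tgfb1 lost the call after PIC without PIC replicate 1, at a log2FC of 0.13, and without PIC + TBHQ replicate 1, at 0.12. With total library size as the scale, the difference between PIC and LPS was 0.20.

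Inhba encodes the beta A subunit of inhibins and activins, and its dimer is activin A. Control and TBHQ libraries held Inhba at 0 counts in each of 6, where a count of 0 allows up to 3 counts. With LPS, Inhba measured 0.0991, 0.0872 and 0.0657 FPKM, from 9, 8 and 6 counts, and with LPS + TBHQ 0.00936, 0.00942 and 0 FPKM. With PIC, Inhba measured 0.321, 0.428 and 0.434 FPKM, from 28, 38 and 47 counts, and with PIC + TBHQ 0.0611, 0.0661 and 0.0780 FPKM. The PIC libraries stood above each of the other 15, and the LPS and PIC + TBHQ libraries overlapped. Inhba passed the low-count filter through the PIC group alone, so it had to differ between groups, and its calls lend no weight to a count over the 10 genes. Against a floor of 3 counts in each control library, Inhba was at least 2.87-fold higher with LPS (FDR 1.95e-05) and at least 13.4-fold higher with PIC (FDR 7.38e-11). It was 4.70-fold higher with PIC than with LPS, with an exact 95% counting interval of 2.99 to 7.72 (FDR 2.58e-05). TBHQ before the stimulus lowered Inhba 13.7-fold after LPS, with an interval of 3.38 to 119.5 (FDR 0.000634), from 23 summed counts to 2. After PIC it lowered Inhba 5.75-fold, with an interval of 3.55 to 9.77 (FDR 4.99e-06), from 113 summed counts to 20. These intervals cover counting error only.

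Thbs1 encodes thrombospondin 1, a secreted glycoprotein that can release TGF-beta from its latent complex. Control libraries held Thbs1 at 0, 0 and 0.0292 FPKM, the last from 3 counts, and TBHQ libraries at 0.00966, 0.0101 and 0 FPKM. With LPS, Thbs1 measured 0.637, 0.447 and 0.518 FPKM, from 55, 39 and 45 counts, and with LPS + TBHQ 0.0591, 0.0496 and 0.00938 FPKM. With PIC, Thbs1 measured 1.00, 0.936 and 1.10 FPKM, from 83, 79 and 113 counts, and with PIC + TBHQ 0.0858, 0.0579 and 0.0616 FPKM. PIC libraries were the highest, LPS libraries came next without overlap, and the other 4 groups lay far lower and overlapped with their neighbours. Thbs1 passed the low-count filter through the LPS and PIC groups alone, so it too had to differ. By summed counts it was 52.2-fold higher with LPS than in the control, with an exact 95% counting interval of 17.5 to 256 (FDR 2.93e-11). With PIC it was 98.8-fold higher, with an interval of 33.5 to 482 (FDR 2.64e-14). Without control replicate 3, the only control library with counts, Thbs1 was at least 17.0-fold higher with LPS and at least 32.0-fold higher with PIC. Thbs1 was 1.89-fold higher with PIC than with LPS, with an interval of 1.54 to 2.34 (FDR 0.00565). TBHQ before the stimulus lowered Thbs1 13.8-fold after LPS, with an interval of 7.63 to 27.3 (FDR 3.18e-09), and 14.7-fold after PIC, with an interval of 9.25 to 24.8 (FDR 3.40e-11).

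Tgfbr2 encodes the type II receptor that binds TGF-beta. Control libraries held Tgfbr2 at 20.8, 20.9 and 21.4 FPKM, and TBHQ libraries at 17.2, 18.1 and 17.9 FPKM. With LPS, Tgfbr2 measured 15.3, 14.2 and 15.1 FPKM, and with LPS + TBHQ 16.5, 16.2 and 15.7 FPKM. With PIC, Tgfbr2 measured 13.5, 14 and 14.2 FPKM, and with PIC + TBHQ 15.7, 15.3 and 15.0 FPKM. Each treated library lay below each control library, and the order from high to low was control, TBHQ, LPS + TBHQ, PIC + TBHQ, LPS and PIC, with PIC + TBHQ and LPS overlapping. Tgfbr2 fell with TBHQ alone (log2FC -0.25, SE 0.024, FDR 3.27e-06), with LPS (log2FC -0.51, SE 0.033, FDR 2.52e-13) and with PIC (log2FC -0.61, SE 0.023, FDR 8.18e-16). After TBHQ it was higher than with the stimulus alone, by a log2FC of 0.12 for LPS (SE 0.037, FDR 0.0303) and 0.15 for PIC (SE 0.028, FDR 0.00465). The call for LPS was lost without LPS replicate 2, LPS + TBHQ replicate 1 or LPS + TBHQ replicate 2, at log2FC of 0.09, 0.10 and 0.12, and with the LPS and LPS + TBHQ groups fitted alone, at 0.11; that for PIC was lost without PIC replicate 1, at 0.11. Tgfbr2 was lower with PIC than with LPS by a small margin (log2FC -0.11, SE 0.037, FDR 0.0461), a call lost under 7 of 9 alternatives in method and without any 1 of 15 of the 18 libraries, with log2FC of -0.13 to -0.08 over the libraries left out and -0.24 with total library size.

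Tgfbr1 encodes the type I receptor that phosphorylates Smad2 and Smad3. Control libraries held Tgfbr1 at 6.66, 7.66 and 7.54 FPKM, and TBHQ libraries at 6.81, 7.20 and 6.76 FPKM. With LPS, Tgfbr1 measured 6.88, 7.17 and 6.40 FPKM, and with LPS + TBHQ 5.18, 6.03 and 4.79 FPKM. With PIC, Tgfbr1 measured 7.78, 6.76 and 7.00 FPKM, and with PIC + TBHQ 6.19, 5.13 and 5.67 FPKM. Control, PIC, TBHQ and LPS overlapped at the upper level, and each library with both TBHQ and a stimulus lay below each library of those 4 groups. TBHQ before the stimulus lowered Tgfbr1 by a log2FC of -0.36 after LPS (SE 0.11, FDR 0.000545) and -0.33 after PIC (SE 0.10, FDR 0.000969). No other comparison called it: the log2FC was -0.08 with TBHQ alone (FDR 0.481), -0.10 with LPS (FDR 0.265), -0.04 with PIC (FDR 0.667) and 0.06 for PIC minus LPS (FDR 0.588). With libraries scaled by their totals, Tgfbr1 was called lower with LPS, at a log2FC of -0.19, and with PIC, at -0.26, and the difference between PIC and LPS turned to -0.07 without a call.

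Acvrl1 encodes a type I receptor best known from endothelial cells, where it answers bone morphogenetic proteins. Control libraries held Acvrl1 at 3.67, 3.35 and 3.83 FPKM, and TBHQ libraries at 4.86, 3.77 and 4.42 FPKM. With LPS, Acvrl1 measured 7.95, 7.09 and 6.82 FPKM, and with LPS + TBHQ 7.28, 6.89 and 5.51 FPKM. With PIC, Acvrl1 measured 8.91, 8.45 and 8.09 FPKM, and with PIC + TBHQ 7.86, 7.46 and 6.81 FPKM. Each library with a stimulus lay above each library without one, PIC libraries stood above the rest, and LPS, LPS + TBHQ and PIC + TBHQ overlapped. Acvrl1 rose with LPS (log2FC 1.00, SE 0.085, FDR 7.44e-11) and with PIC (log2FC 1.21, SE 0.069, FDR 2.16e-13). With TBHQ alone the call was marginal (log2FC 0.26, SE 0.12, FDR 0.0485) and the libraries overlapped with the control. It was lost with total library size, at 0.26, under limma at 0.21 and 0.25, and without control replicate 1, 2 or 3, TBHQ replicate 1 or 3, PIC replicate 2, LPS + TBHQ replicate 2 or PIC + TBHQ replicate 2, at 0.27, 0.21, 0.31, 0.18, 0.25, 0.27, 0.26 and 0.27. Acvrl1 was not called with TBHQ before LPS (log2FC -0.16, FDR 0.232), before PIC (log2FC -0.19, FDR 0.102) or for PIC minus LPS (log2FC 0.21, FDR 0.0798). Calls appeared with the groups compared fitted alone, at -0.19 before PIC and 0.21 for PIC minus LPS, and for the latter without LPS replicate 1, at 0.27. Over the alternatives in method these values ran from -0.21 to -0.12 before PIC and from 0.08 to 0.22 for PIC minus LPS. The value before LPS ran from -0.24 to -0.04 with 1 library left out.

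Smad3 encodes the receptor-activated Smad that, with Smad2, carries TGF-beta and activin signals. Control libraries held Smad3 at 0.705, 0.952 and 0.790 FPKM, and TBHQ libraries at 0.900, 0.993 and 0.794 FPKM. With LPS, Smad3 measured 0.216, 0.314 and 0.303 FPKM, and with LPS + TBHQ 0.410, 0.348 and 0.350 FPKM. With PIC, Smad3 measured 0.291, 0.143 and 0.181 FPKM, and with PIC + TBHQ 0.270, 0.330 and 0.461 FPKM. Control and TBHQ libraries overlapped at the upper level, each library with a stimulus lay below them, and neighbours among the 4 stimulated groups overlapped. Smad3 fell with LPS (log2FC -1.56, SE 0.20, FDR 1.32e-06), to 0.339 of the control, and with PIC (log2FC -2.02, SE 0.30, FDR 1.51e-08), to 0.247 of the control. With 11 to 22 counts in a PIC library and 23 to 41 in a PIC + TBHQ library, Smad3 was higher with PIC + TBHQ than with PIC (log2FC 0.81, SE 0.34, FDR 0.0295), although the libraries overlapped. This call was lost without PIC replicate 2, PIC replicate 3 or PIC + TBHQ replicate 3, at log2FC of 0.61, 0.71 and 0.56, and with the 2 groups fitted alone, at 0.81. Smad3 did not pass the test with TBHQ alone (log2FC 0.13, FDR 0.685) or for PIC minus LPS (log2FC -0.46, FDR 0.293). Nor did it pass with TBHQ before LPS (log2FC 0.41, FDR 0.307), although each LPS + TBHQ library lay above each LPS library. With 1 library left out these values ran from 0.04 to 0.25, -0.76 to -0.27 and 0.25 to 0.51, in that order.

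Smad6 encodes an inhibitory Smad that acts chiefly on the bone morphogenetic protein branch. Control libraries held Smad6 at 1.26, 1.01 and 1.31 FPKM, and TBHQ libraries at 2.01, 2.31 and 2.01 FPKM. With LPS, Smad6 measured 0.746, 0.608 and 0.764 FPKM, and with LPS + TBHQ 0.653, 0.808 and 0.925 FPKM. With PIC, Smad6 measured 0.366, 0.314 and 0.719 FPKM, and with PIC + TBHQ 0.894, 0.791 and 1.01 FPKM. TBHQ libraries were the highest and control libraries next, neither overlapping with another group, while the stimulated groups overlapped in a chain and PIC replicate 3 lay far above the other PIC libraries. Smad6 rose with TBHQ alone (log2FC 0.82, SE 0.13, FDR 0.00108) and fell with LPS (log2FC -0.77, SE 0.15, FDR 0.00511) and with PIC (log2FC -1.33, SE 0.35, FDR 1.17e-05). It was higher with PIC + TBHQ than with PIC (log2FC 0.92, SE 0.35, FDR 0.00491), each library of the former above each of the latter. That call was lost without PIC replicate 2, at 0.69, and the value was 1.40 without PIC replicate 3. With TBHQ before LPS the log2FC was 0.17 (FDR 0.676), and 0.05 to 0.30 with 1 library left out. For PIC minus LPS it was -0.56 (FDR 0.117), a difference that was called without PIC replicate 3, at -1.05, and with total library size, at -0.69. This difference ran from -0.69 to -0.23 over the alternatives in method and from -1.05 to -0.35 with 1 library left out. On log2(FPKM + 1), limma gave log2FC of 0.50 with TBHQ alone, -0.36 with LPS, -0.59 with PIC and 0.38 for PIC + TBHQ minus PIC, all called.

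Smad7 encodes the inhibitory Smad that brings ubiquitin ligases to the TGF-beta receptors and is itself induced by the pathway. Control libraries held Smad7 at 0.317, 0.339 and 0.353 FPKM, and TBHQ libraries at 0.779, 0.798 and 0.779 FPKM. With LPS, Smad7 measured 0.545, 0.431 and 0.464 FPKM, and with LPS + TBHQ 0.331, 0.146 and 0.252 FPKM. With PIC, Smad7 measured 0.713, 0.653 and 0.849 FPKM, and with PIC + TBHQ 0.346, 0.638 and 0.565 FPKM. TBHQ and PIC libraries shared the upper level, PIC + TBHQ and LPS overlapped in the middle, and control and LPS + TBHQ overlapped at the bottom, where the lowest PIC + TBHQ library also lay. Smad7 rose with TBHQ alone (log2FC 1.21, SE 0.043, FDR 0.000255), the largest log2FC in that comparison among the 8 genes with counts above the floor, and with PIC (log2FC 1.12, SE 0.11, FDR 0.000274). With LPS the log2FC was 0.50 (SE 0.10, FDR 0.132) although each LPS library lay above each control library. TBHQ before LPS lowered it (log2FC -0.98, SE 0.32, FDR 0.0102), but not past the threshold without LPS replicate 1, at -0.88, without LPS + TBHQ replicate 2, at -0.72, or under limma on log2(FPKM + 1), at -0.25. For TBHQ before PIC the log2FC was -0.51 (SE 0.28, FDR 0.104). PIC minus LPS gave 0.62 (SE 0.14, FDR 0.0581), called without LPS + TBHQ replicate 1, LPS + TBHQ replicate 2 or PIC + TBHQ replicate 1, at 0.62 each. On log2(FPKM + 1), limma gave 0.42 with TBHQ alone and 0.38 with PIC, both called.

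Skil encodes SnoN, a corepressor that binds Smads and is degraded and then made anew when TGF-beta signals. Control libraries held Skil at 4.82, 5.41 and 5.39 FPKM, and TBHQ libraries at 9.04, 9.03 and 8.39 FPKM. With LPS, Skil measured 6.83, 6.83 and 5.87 FPKM, and with LPS + TBHQ 5.04, 5.20 and 4.70 FPKM. With PIC, Skil measured 7.63, 6.89 and 8.11 FPKM, and with PIC + TBHQ 5.44, 5.16 and 5.50 FPKM. TBHQ libraries were the highest, PIC and then LPS libraries followed without overlap, and PIC + TBHQ, control and LPS + TBHQ overlapped at the bottom. Skil rose with TBHQ alone (log2FC 0.76, SE 0.066, FDR 3.86e-12), with LPS (log2FC 0.31, SE 0.091, FDR 8.74e-05) and with PIC (log2FC 0.52, SE 0.087, FDR 5.83e-09). TBHQ before the stimulus lowered it, by a log2FC of -0.39 after LPS (SE 0.084, FDR 1.10e-05) and -0.48 after PIC (SE 0.074, FDR 1.33e-07). Skil was higher with PIC than with LPS (log2FC 0.21, SE 0.099, FDR 0.0112), a call lost without LPS replicate 3, at 0.14, without PIC replicate 3, at 0.15, and with total library size, at 0.08. The rise with PIC was 0.30 with total library size.

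**Figure D2:**
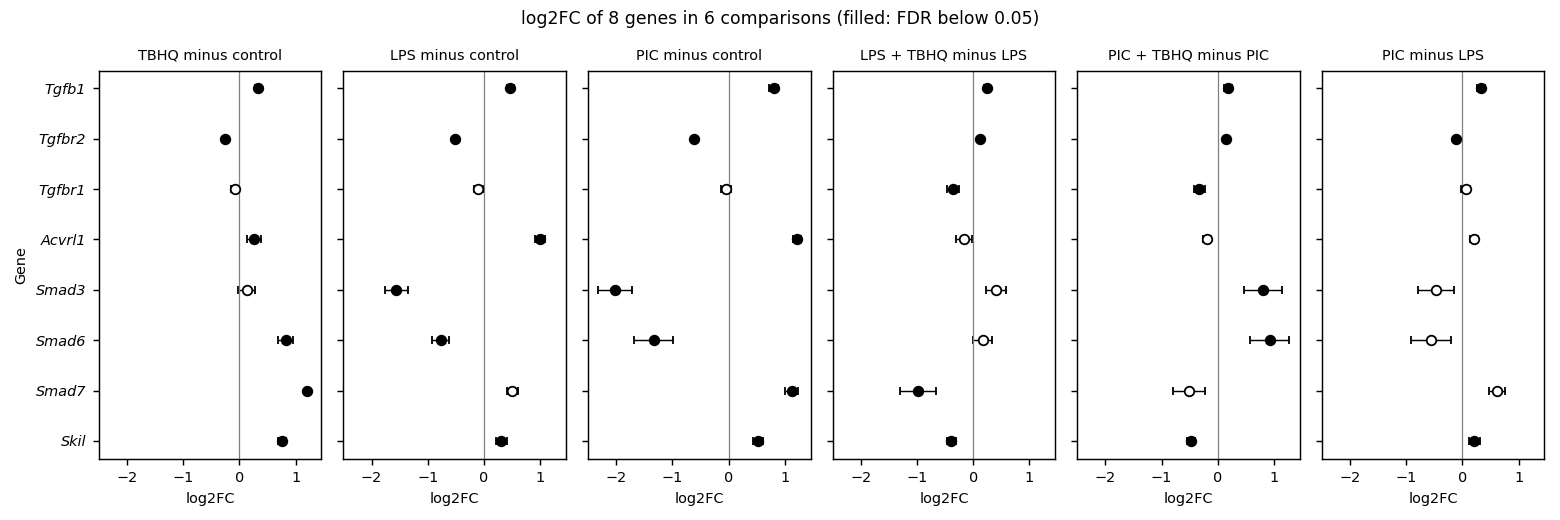
log2FC of the 8 genes other than Inhba and Thbs1 in the 6 comparisons; points are edgeR estimates, error bars the SE from the spread between libraries, and filled points have an FDR below 0.05. Smad3 and Smad6 lie to the left with LPS and PIC, and Skil lies to the right with TBHQ, LPS or PIC alone and to the left with TBHQ before either stimulus.

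Scaling by total library size in place of TMM, edgeR's default scaling, shifted the median log2FC of all genes by -0.22 for PIC minus control and -0.13 for PIC minus LPS. The values given here are relative to the TMM scale, on which the median of all genes lay between -0.01 and 0.01.

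TBHQ alone, which asks what the antioxidant does in resting cells, raised Tgfb1, Acvrl1, Smad6, Smad7 and Skil and lowered Tgfbr2. Of the 10 genes, 6 were called, where 29.0% of all genes tested were. Of these, 5 were higher, beside 14.2% of all genes, and 1 was lower, beside 14.8%. The 8 genes other than Inhba and Thbs1 gave the same 5 and 1. The median log2FC was 0.30 over those 8 genes and 0.00 over all genes.

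LPS raised Tgfb1, Inhba, Thbs1, Acvrl1 and Skil and lowered Tgfbr2, Smad3 and Smad6. The 8 calls of 10 stand beside 48.1% of all genes, the 5 higher beside 24.0% and the 3 lower beside 24.1%. Without Inhba and Thbs1, 3 of 8 genes were higher and 3 lower, with a median log2FC of 0.10 beside 0.00 over all genes. Scaled by total library size, 17.9% of all genes were higher and 33.3% lower, and 5 and 4 of the 10 genes, Tgfbr1 being the added one.

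PIC raised the 5 genes that LPS raised and also Smad7, and it lowered Tgfbr2, Smad3 and Smad6. The 9 calls of 10 stand beside 58.7% of all genes, the 6 higher beside 28.6% and the 3 lower beside 30.1%. Without Inhba and Thbs1, 4 of 8 genes were higher and 3 lower, with a median log2FC of 0.24 beside -0.01 over all genes. Scaled by total library size, 17.4% of all genes were higher and 48.5% lower, and 6 and 4 of the 10 genes, Tgfbr1 again being added. Smad7 was called with PIC and not with LPS, and the direct comparison of the stimuli did not call it.

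TBHQ before LPS, set against LPS alone, raised Tgfb1 and Tgfbr2 and lowered Inhba, Thbs1, Tgfbr1, Smad7 and Skil. The 7 calls of 10 stand beside 23.9% of all genes, the 2 higher beside 11.7% and the 5 lower beside 12.2%. Without Inhba and Thbs1, 2 of 8 genes were higher and 3 lower, with a median log2FC of -0.02 beside 0.00 over all genes. Scaled by total library size, 15.1% of all genes were higher and 10.2% lower, and 2 and 5 of the 10 genes.

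TBHQ before PIC raised Tgfb1, Tgfbr2, Smad3 and Smad6 and lowered Inhba, Thbs1, Tgfbr1 and Skil. The 8 calls of 10 stand beside 31.3% of all genes, the 4 higher beside 15.8% and the 4 lower beside 15.5%. Without Inhba and Thbs1, 4 of 8 genes were higher and 2 lower, with a median log2FC of -0.02 beside 0.01 over all genes. Scaled by total library size, 24.8% of all genes were higher and 10.5% lower, and 4 and 4 of the 10 genes.

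PIC against LPS showed Tgfb1, Inhba, Thbs1 and Skil higher and Tgfbr2 lower. The 5 calls of 10 stand beside 27.7% of all genes, the 4 higher beside 14.9% and the 1 lower beside 12.8%. Without Inhba and Thbs1, 2 of 8 genes were higher and 1 lower, with a median log2FC of 0.13 beside -0.01 over all genes. Scaled by total library size, 7.20% of all genes were higher and 31.9% lower, and 3 and 2 of the 10 genes. Without LPS replicate 3 the count was 3, and DESeq2, with no adjusted p for Inhba here, gave 3 and limma 2.

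Whether TBHQ changed a gene differently before PIC than before LPS was tested as the difference between the log2FC of these 2 comparisons. By edgeR 0 of the 10 genes passed, beside 1.84% of all genes, and 1, Smad6, had an unadjusted p below 0.05 (difference 0.75, SE 0.39, p 0.0400, FDR 0.324). DESeq2 called 0 as well, giving no adjusted p for Inhba, Smad3, Smad6, Smad7 and Thbs1, and limma called 0 on both pseudocounts. Smad3 and Smad6 were called with TBHQ before PIC and not before LPS, and Smad7 before LPS and not before PIC. Their differences did not pass: 0.41 for Smad3 (SE 0.39, FDR 0.713) and 0.46 for Smad7 (SE 0.42, FDR 0.638). With 1 library left out the difference ran from 0.16 to 0.70 for Smad3, 0.52 to 1.22 for Smad6 and 0.21 to 0.74 for Smad7, and limma on log2(FPKM + 1) gave 0.31 for Smad6 and 0.05 for Smad7, none of them called. For Tgfb1 the difference was -0.06 (SE 0.087, FDR 0.753), for Tgfbr2 0.03 (SE 0.047, FDR 0.867), for Tgfbr1 0.03 (SE 0.15, FDR 0.946), for Acvrl1 -0.03 (SE 0.16, FDR 0.943) and for Skil -0.09 (SE 0.11, FDR 0.710). With total library size the Acvrl1 difference turned to 0.01. Inhba had an FDR of 0.661 and Thbs1 of 0.968. A p that misses the threshold does not show that the effects were alike.

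Beyond the 10 genes, 112 others of the TGF-beta superfamily pathway were listed by role, and 55 of them passed the low-count filter. Of 27 other ligands, only Gdf9 and Gdf15 passed, at means of 4.94 and 24.2 counts, so Tgfb1 was the only ligand of the pathway above 50 counts on average. Of 11 extracellular antagonists only Twsg1 passed, and follistatin, the binding protein of activin, reached at most 12 counts as Fst. Acvr1b, Acvr2a and Acvr2b, receptors that bind activin, had control means of 5.07, 2.22 and 1.51 FPKM. Smad2 measured 7.01 FPKM in the control and between 6.91 and 7.23 FPKM in the other group means, Smad4 14.8 FPKM in the control and 15.5 to 18.8 FPKM in the others, against 0.816 FPKM for Smad3. No other receptor-activated Smad that was tested, Smad1, Smad2 or Smad5, was called except Smad5, which was lower with LPS (log2FC -0.37, SE 0.084, FDR 3.85e-05) and with PIC.

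Of the 55 genes, 47 reached the CPM limit of the low-count filter in every library. Ltbp1, Lrrc32, Itgb8 and Mmp14, with means of 7.61, 5.61, 3.61 and 128 counts, reached it only in libraries with a stimulus. So did Gdf9 and Ltbp2, with means of 4.94 and 7.94 counts. Passing the filter rested on stimulated libraries for these genes, so their calls lend no weight to a count over the 55. Ltbp1 was called higher with LPS and PIC, and Lrrc32 and Itgb8 with PIC and for PIC minus LPS, where DESeq2 gave neither an adjusted p. Among the 47 genes, 16 were higher and 6 lower with TBHQ alone, 19 and 12 with LPS, 23 and 13 with PIC, 2 and 11 with TBHQ before LPS, 4 and 16 before PIC, and 12 and 5 for PIC minus LPS. In that order all genes tested gave 14.2% and 14.8%, 24.0% and 24.1%, 28.6% and 30.1%, 11.7% and 12.2%, 15.8% and 15.5%, and 14.9% and 12.8%. The 6, 12 and 13 lower with TBHQ alone, LPS and PIC lay near these shares.

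With TBHQ alone 17 of the 55 genes were higher and 6 lower, beside 14.2% and 14.8% of all genes tested. The highest and lowest given here and below are among genes with a mean of at least 50 counts. The 5 highest were Pmepa1 (log2FC 1.3, SE 0.065, FDR 1.14e-07), Myc, Id1, Id3 and Cdkn1a, down to a log2FC of 0.42. The 5 lowest were Amhr2 (log2FC -0.54, SE 0.10, FDR 0.00867), Nedd4l, Plau, Bmpr1a and Twsg1, up to -0.16. Under limma Nedd4l was not called, at -0.14 and -0.41, nor was Twsg1 without control replicate 2, at -0.13. At a mean of 24.2 counts Gdf15, a distant ligand of the family, was also called higher (log2FC 0.86, SE 0.20, FDR 0.0356), but not without control replicate 1, 2 or 3 or TBHQ replicate 1 or 3, at 0.91, 0.79, 0.88, 0.77 and 0.77.

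With LPS 21 of the 55 were higher and 12 lower, beside 24.0% and 24.1% of all genes. With total library size these were 15 and 17, beside 17.9% and 33.3%. Among latency and activation genes Mmp14, a membrane protease, rose from 17 summed counts to 314 or 20.8-fold, with an exact 95% counting interval of 12.8 to 36.2 (FDR 7.15e-18), and Furin, the convertase that cleaves the TGF-beta precursor, by a log2FC of 1.01 (SE 0.037, FDR 3.58e-20). Myc, Cdkn1a and Junb were the other 3 of the 5 highest, with log2FC of 1.95, 1.38 and 0.76. The 5 lowest were Klf10, Nrros, Rbl1, Smad5 and Cd109, from -1.03 to -0.37, and Nrros, which holds latent TGF-beta on myeloid cells, fell from 34.5 to 19.7 FPKM (log2FC -0.82, SE 0.056, FDR 1.28e-16). Cd109 overlapped with the control and lost its call without control replicate 2, at -0.28.

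With PIC 27 were higher and 13 lower, beside 28.6% and 30.1% of all genes, and with total library size 17 and 20, beside 17.4% and 48.5%. Mmp14 reached 1144 summed counts, 72.6-fold above the control with an interval of 45.1 to 125 (FDR 3.83e-25), Itgav 26.8 FPKM (log2FC 1.40, SE 0.036, FDR 3.87e-25) and Furin 28.3 FPKM (log2FC 1.72, SE 0.024, FDR 9.97e-28), with Cdkn1a and Myc also among the 5 highest. The 5 lowest were Rbl1, Klf10, Nrros, Id3 and Id1, from a log2FC of -1.26 to -0.68. PIC against LPS gave 15 higher and 5 lower, beside 14.9% and 12.8%, and with total library size 8 and 14, beside 7.20% and 31.9%. The highest there were Mmp14, Itgav, Furin, Plau and Junb, from a log2FC of 1.80 to 0.55, and the lowest Id1, Rbl1, Id3, Myc and Acvr1, from -0.79 to -0.21. Id3 lost that call without LPS replicate 2 or 3 or PIC replicate 1 or 2, at -0.31, -0.34, -0.30 and -0.34. Acvr1 lost it without LPS replicate 1 or 2 or PIC replicate 1 or 2, at -0.18, -0.21, -0.16 and -0.19, and under 3 alternatives in method.

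TBHQ before LPS left 2 of the 55 higher, Nrros (log2FC 0.34, SE 0.052, FDR 1.37e-06) and Rbl1 (log2FC 0.27, SE 0.070, FDR 0.000272), and 12 lower. All genes gave 11.7% higher and 12.2% lower. With total library size 3 and 9 of the 55 were called, beside 15.1% and 10.2%. The lowest were Cdkn1a (log2FC -0.95, SE 0.040, FDR 2.53e-19), Mmp14, Pmepa1, Itgav and Furin, up to a log2FC of -0.57. Pmepa1 lost its call without LPS replicate 3 or LPS + TBHQ replicate 1, at -0.58 and -0.61, and under limma on log2(FPKM + 1), at -0.22. Before PIC 5 were higher and 17 lower, beside 15.8% and 15.5%, and with total library size 7 and 12, beside 24.8% and 10.5%. Nrros (log2FC 0.42, SE 0.056, FDR 1.77e-08), Ski, Rbl1 and Smurf1 were higher, the last at 0.15, as was Gdf15 with its few counts (log2FC 1.02, SE 0.33, FDR 0.0158). Gdf15 lost the call without PIC replicate 1 or 2 or PIC + TBHQ replicate 2 or 3, at 0.87, 0.81, 0.93 and 0.94. Rbl1 lost its call without any 1 of 4 libraries, PIC replicate 1 or 2 or PIC + TBHQ replicate 1 or 3, at 0.16, 0.15, 0.16 and 0.13. Smurf1 lost it without PIC replicate 1 or 2, at 0.11 and 0.09, without any 1 PIC + TBHQ library, at 0.13, 0.14 and 0.16, without LPS replicate 2 or 3, at 0.14 each, and under 5 alternatives in method, at 0.13 to 0.15. The lowest were Cdkn1a (log2FC -1.05, SE 0.036, FDR 1.30e-20), Itgav, Mmp14, Furin and Id3, up to -0.69. By edgeR with TMM the TBHQ effect was called different between the stimuli for 1 of the 55, near the share of 1.84% of all genes. This was Itgav, a subunit of integrins that release TGF-beta, with a difference of -0.27 (SE 0.063, FDR 0.0102). With RLE size factors 2 of the 55 were called. Itgav did not pass without PIC + TBHQ replicate 1, at -0.24.

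Nearest in pattern to each of the 6 genes whose group means of log2 CPM spanned at least 1 were sought among genes with a mean of at least 50 counts, by the root-mean-square difference between the 6 centred group means. Acvrl1 lay nearest to Traf5 at 0.04, Micall1 at 0.04 and Ppp1r13l at 0.06 among 10450 genes. Smad3 lay nearest to Cdca3 at 0.07, Gpsm2 at 0.11 and Mycn at 0.11. Smad6 lay nearest to Igf1 at 0.18, Plxdc1 at 0.22 and Ccnd1 at 0.22. Smad7 lay nearest to Hspa1b at 0.31, Tlr2 at 0.31 and Skil, another of the 10 genes, at 0.33. Inhba lay nearest to Rsad2 at 0.29, Gbp2b at 0.40 and Gm8818 at 0.41, and Thbs1 to Ccl22 at 0.51, Gm18445 at 0.64 and Hdc at 0.68, both with means that rest on the prior count where counts were 0.

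Smad3 and Smad6 share the minus strand of chromosome 9, 195082 bases apart by the positions in the files, and Tgfbr2 lies on the same chromosome and strand. In the files Smad3 (ENSMUSG00000032402) spans positions 63554049 to 63665276, Smad6 (ENSMUSG00000036867) 63860358 to 63929341 and Tgfbr2 (ENSMUSG00000032440) 115913361 to 116004428. Tgfb1 (ENSMUSG00000002603) lies on chromosome 7, Inhba (ENSMUSG00000041324) on 13, Thbs1 (ENSMUSG00000040152) on 2, Tgfbr1 (ENSMUSG00000007613) on 4, Acvrl1 (ENSMUSG00000000530) on 15, Smad7 (ENSMUSG00000025880) on 18 and Skil (ENSMUSG00000027660) on 3. The build behind these positions is uncertain, since the labels name GRCm38 and mm39 together and 9 of the 10 starts differ from the GENCODE M21 annotation of GRCm38. Genes that overlap Acvrl1 and Inhba on the opposite strand had means of at most 0.278 counts.

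RefSeq promoter sequences of build GRCm38.p6 were at hand for 6 of the 10 genes, Tgfb1, Inhba, Tgfbr1, Tgfbr2, Smad3 and Smad6, in 7 entries, as 250 bases before the start. Searched on both strands were the palindromic Smad box GTCTAGAC, found in 0.167% of 32851 promoters, the CAGA box CAGACA in 17.1%, the AP-1 element TGANTCA in 6.75%, the antioxidant response element core TGACNNNGC in 10.2% and the cAMP response element TGACGTCA in 1.55%. The last 3 motifs open with the same letters TGA, so their matches can overlap. The antioxidant response element core occurred once, on the strand opposite to the gene, in Tgfbr1 (214 to 206 bases before the start), Smad6 (186 to 178) and Tgfbr2 (192 to 184). A CAGA box occurred in the second Tgfbr1 entry, 203 to 198 bases before its start, and Tgfb1, Smad3 and Inhba held none of the 5 motifs. A match describes letters and shows no bound factor. Smad6, Tgfbr2 and Inhba are shown because Smad6 and Tgfbr2 moved in opposite directions with TBHQ alone while both hold the core, and Inhba had no count without a stimulus; capitals mark the core. They stand at chr9:64022060-64022309 on the minus strand, chr9:116175364-116175613 on the minus strand and chr13:16011601-16011850 on the plus strand, each written 5′ to 3′ on the strand of its gene.
Smad6: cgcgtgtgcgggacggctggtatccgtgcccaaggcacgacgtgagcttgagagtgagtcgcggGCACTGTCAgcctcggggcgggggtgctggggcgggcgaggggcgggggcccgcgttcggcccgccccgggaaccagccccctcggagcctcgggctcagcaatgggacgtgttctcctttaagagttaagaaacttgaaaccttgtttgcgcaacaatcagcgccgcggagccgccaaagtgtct
Tgfbr2: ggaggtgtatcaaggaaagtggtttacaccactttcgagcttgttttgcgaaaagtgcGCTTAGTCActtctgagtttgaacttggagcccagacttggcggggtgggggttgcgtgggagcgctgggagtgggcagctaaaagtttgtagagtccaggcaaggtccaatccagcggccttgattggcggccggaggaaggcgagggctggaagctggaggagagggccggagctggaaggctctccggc
Inhba: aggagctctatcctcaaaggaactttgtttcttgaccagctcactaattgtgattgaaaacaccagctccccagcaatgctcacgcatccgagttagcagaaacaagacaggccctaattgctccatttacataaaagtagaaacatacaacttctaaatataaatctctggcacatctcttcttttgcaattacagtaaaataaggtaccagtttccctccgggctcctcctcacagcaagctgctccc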

How the data were processed

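Poly(A) RNA of RAW 264.7 cells was sequenced strand-specifically in paired ends. Before deposition, fragments were aligned with HISAT2 2.0.5 and counted per gene with featureCounts 1.5.0-p3. The paper credits the alignment and the FPKM to the company Novogene. The authors deposited raw counts per gene and FPKM, which equal the counts per gene length and library total times a constant of 0.943 to 1.12 per library. The tables were read in Python 3.11.15 with pandas 2.3.3, numpy 2.4.6 and scipy 1.17.1, and figures drawn with matplotlib 3.10.9. In R 4.3.3, edgeR 4.0.16 took the genes that pass filterByExpr, scaled them by TMM and fitted 1 coefficient per group over all 18 libraries. Counts could be found for 27701 genes, 13691 of which were tested. The test was tested on simulated data, where recovery of changed genes was required only at a mean of at least 50 counts. Inhba, Thbs1, Smad3 and Smad7 had lower means. Totals of 14423390 to 18851626 counts put 3 counts, the floor of detection, at 0.159 to 0.208 CPM; log2 CPM used a prior count of 2. Ratios for Inhba and Thbs1, and for Mmp14 against the control, are summed counts over scaled library totals with exact Clopper-Pearson 95% intervals. In 7 comparisons the 10 genes were described, with up to 5 highest and 5 lowest called genes of the other pathway genes with a mean of at least 50 counts, the called ones with fewer counts, and 3 genes nearest in pattern per member. Alternatives were DESeq2 1.42.0, limma 3.58.1 on log2(FPKM + 1) and log2(FPKM + 0.1) of genes with a mean of at least 0.5 FPKM, RLE or total library size, other filters and thresholds, a replicate block, the groups compared only, TMM-scaled CPM for the order of levels, and leaving out each library. The 10 genes and the lists were chosen with earlier results of these data known. Protein and functional assays were not analysed. From the lists, 1 pathway gene and 1 marker gene are not reported.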

Additional observations from a re-analysis of the deposited data

Results flagged for a closer look

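By edgeR the log2FC of Itgav, an integrin subunit, with TBHQ before PIC minus that before LPS was -0.27, a called difference. As 1 of 55 pathway genes it lay near the share of 1.84% of all genes, so the count shows nothing particular to this list. The call was lost without PIC + TBHQ replicate 1, at -0.24. No group had more than 3 libraries, so single libraries were not tested for standing apart.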

How the results depend on the processing

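Over the 10 genes and 7 comparisons, 1764 single values were recomputed under alternatives other than thresholds. Direction and side of the threshold were kept by 1688, 51 lost a call, 11 gained one and 14 changed sign, none of the last called. The changes of sign were for PIC minus LPS of Tgfbr1 (-0.07) and the interaction of Acvrl1 (0.01) with total library size, and with 1 library left out for the interaction of Thbs1 (-0.58 to 0.30 over the libraries left out), Tgfbr2 (0.00 to 0.05), Tgfbr1 (-0.04 to 0.13) and Acvrl1 (-0.15 to 0.05) and for PIC minus control of Tgfbr1 (-0.10 to 0.01). LPS minus control called 5 of the 10 genes under either limma fit, beside 24.3% of all genes higher and 23.9% to 24.1% lower. With a mean of at least 50 counts it called 5, beside 30.3% and 27.8%. PIC minus control called 5 with that filter, beside 34.3% and 33.5%. LPS + TBHQ minus LPS called 4 under limma on log2(FPKM + 1), beside 12.1% and 11.4%, and 4 with the filter, beside 15.0% and 16.1%. PIC + TBHQ minus PIC called 5 under either limma fit, beside 14.7% to 15.0% higher and 16.2% to 16.6% lower. With the filter it called 5, beside 18.1% and 21.6%. PIC minus LPS called 3 under DESeq2, beside 15.1% and 11.1%, and 3 with the filter, beside 19.1% and 16.6%. Under either limma fit it called 2, beside 15.4% to 16.0% higher and 11.8% to 12.1% lower. Limma left out Inhba, Thbs1 and Smad3, that filter these and Smad7, and the fit of the groups compared only left out Inhba where PIC was not in it. DESeq2 gave no adjusted p for Inhba in PIC minus LPS; other causes were not tested. At an FDR below 0.01 and an absolute log2FC above 2 the counts were 0, 2, 3, 2, 2 and 1 in the 6 pairwise comparisons, and at 0.05 and 1 they were 1, 4, 6, 2, 2 and 1. Where any were called at the stricter threshold, they were Inhba and Thbs1, which had to differ, with Smad3 added for PIC minus control. For PIC minus LPS the gene was Inhba alone. Shares of all genes at these thresholds were not computed. Leaving out 1 library gave 5 to 6 for TBHQ minus control, 8 to 8, 9 to 9, 5 to 7, 6 to 8 and 3 to 5 for the comparisons in the order above, and 0 to 0 for the interaction. The highest and lowest group stayed the same for 8 to 10 genes, and for 10 by CPM. Same-numbered libraries of different groups were no more alike (median r 0.00225) than others (-0.000615), and a fit with the replicate number as a replicate block gave 6, 8, 9, 7, 8, 5 and 0 called genes, losing Tgfbr2 (-0.11) and gaining Acvrl1 (0.21) for PIC minus LPS. Named pathway genes with a mean of at least 50 counts lost their call in 35 of 1539 recomputed values and changed sign in 0. Genes with few counts, such as Smad3, Smad6 and Smad7, limit what 3 libraries can show.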
